A study of Mus musculus with 3 samples.

Results

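The genes described are the 4 Notch receptors of the mouse (Notch1, Notch2, Notch3 and Notch4), the ligands Dll4, Jag1 and Jag2, and the target genes Hey1, Hey2 and Heyl. They were chosen by name, as 10 of the 32285 genes in the feature list, and their level was read in every class of nuclei and every library. The data are single-nucleus RNA sequencing of mouse heart collected 2 weeks after surgery. Each of the 3 groups was 1 library. Sham-NS hearts had a sham operation and NS, a treatment whose name is not spelled out in the labels. MI-NS hearts had a myocardial infarction and NS. MI-DAPA hearts had an infarction and dapagliflozin, an inhibitor of the glucose transporter SGLT2. The labels give no strain, sex, age, dose or number of hearts per library. With 1 library per group no difference between groups could be tested, so brackets hold 95% counting intervals, which cover neither the spread between hearts nor that between preparations.

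Notch signalling passes between touching cells. A ligand of the Delta or Jagged family on one cell binds a receptor on its neighbour, the receptor is cut by ADAM proteases and then by gamma-secretase, and the freed intracellular part enters the nucleus. There it joins the DNA-binding protein RBPJ and turns on genes such as those of the Hes and Hey families, which encode repressors. In blood vessels the pathway is known for arterial identity, for restraint of sprouting, and for signalling from endothelial cells to the mural cells (pericytes and smooth muscle) that wrap them.

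RBPJ binds DNA whose core letters are TGGGAA. Promoters of 300 bases, from 250 bases before to 50 after the annotated start, were taken from RefSeq (GRCm38.p6) for 8 of the 10 genes, all but Hey1 and Heyl. Hey2 was the only 1 of the 8 that held TGGGAA on either strand (as TGGGAA or TTCCCA), with 1 match on each strand, at positions -3 and -207 from the start. Those letters stood in 25.56% of the 32851 promoters of the table, so a match is a description and not a binding site. The Hey2 promoter, a target gene, is printed beside that of Notch3, a receptor read in the same mural nuclei. Capitals mark the matches, and both run 5′ to 3′ along the minus strand.
Hey2, chr10:30842734-30843033, minus strand: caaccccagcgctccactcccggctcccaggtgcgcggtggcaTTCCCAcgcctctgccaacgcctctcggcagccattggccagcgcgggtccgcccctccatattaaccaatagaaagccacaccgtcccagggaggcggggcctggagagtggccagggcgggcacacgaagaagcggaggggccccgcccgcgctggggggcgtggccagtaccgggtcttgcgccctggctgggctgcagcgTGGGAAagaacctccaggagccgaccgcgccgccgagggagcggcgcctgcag
Notch3, chr17:32166841-32167140, minus strand: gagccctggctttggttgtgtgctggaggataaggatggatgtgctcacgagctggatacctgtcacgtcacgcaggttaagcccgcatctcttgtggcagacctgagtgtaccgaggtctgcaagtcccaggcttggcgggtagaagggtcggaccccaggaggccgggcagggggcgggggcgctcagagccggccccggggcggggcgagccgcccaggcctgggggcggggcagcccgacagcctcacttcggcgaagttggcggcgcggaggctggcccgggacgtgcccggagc
E-box forms known to be bound by Hey and Hes repressors were searched on both strands as well. CACGTG stood in none of the 8 promoters and in 7.15% of all promoters, and CACGCG stood in those of Notch2, Dll4, Jag1 and Jag2 and in 9.269% of all promoters.

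In mm10 coordinates the receptors lie on chromosome 2 (Notch1, 26457903-26516663, minus strand), chromosome 3 (Notch2, 98013527-98150361, plus strand) and chromosome 17 (Notch3, 32120820-32166852, minus strand, and Notch4, 34564268-34588503, plus strand). Of the ligands, Dll4 (119325784-119335962, plus strand) and Jag1 (137081456-137116644, minus strand) are on chromosome 2, and Jag2 (112907819-112929776, minus strand) is on chromosome 12. The targets are on chromosome 3 (Hey1, 8663359-8667256, minus strand), chromosome 10 (Hey2, 30832359-30842801, minus strand) and chromosome 4 (Heyl, 123233556-123249875, plus strand). Annotated genes overlap Notch1, Notch2 and Jag2 on the same strand, and Notch1, Notch3, Notch4 and Dll4 on the other strand. Whether the counting used strand is not given in the sources used here. The part of those partners in the counts was not tested.

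The libraries held 9744, 7725 and 6354 barcodes (in the order Sham-NS, MI-NS, MI-DAPA, which holds for every later set of 3 values). After filtering, 8296, 7065 and 5372 nuclei remained, with median depths of 790, 851 and 831 unique molecular identifiers (UMIs, each a distinct captured RNA molecule). Between 13 and 20 barcodes were shared by any pair of libraries. The median mitochondrial share was 3.32%, 1.48% and 2.42%, and Malat1, a nuclear RNA, took 4.53%, 8.57% and 5.29% of UMIs, so RNA content differed between libraries along with the groups. Clusters with high doublet scores, 15.5%, 11.1% and 10.1% of nuclei, were set aside as mixed, and these held between 7.0% (Hey2, MI-DAPA) and 31.3% (Dll4, MI-NS) of a gene's UMIs. When endothelial nuclei were clustered again, a sub-cluster led by Hmcn2 and Abca6 (112, 57 and 25 nuclei) also had a high score. It was kept in the endothelial classes. Classes were named from marker genes, none of them a Notch pathway gene, and carry the ending -like. In 8 of the 9 classes with at least 50 nuclei in each library, at least 10 markers, or all of the list, stood 2-fold above the other nuclei, whereas the smooth muscle-like class reached 9, 10 and 7 of 11 markers. Levels are UMIs of the gene per 1000000 UMIs of the class (CPM), and since transcript length and capture differ, they are compared within a gene and not between genes.

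Notch3, the receptor known from pericytes and vascular smooth muscle, was highest in pericyte-like nuclei in every library. It stood there at 1155 (1045-1273), 1361 (1202-1536) and 1452 (1299-1617) CPM. Smooth muscle-like nuclei followed with 430.0, 614 and 349 CPM, which did not overlap the pericyte-like range. The 13 cardiomyocyte markers summed to 107604, 27669 and 122609 CPM in smooth muscle-like nuclei. Their part in the levels of that class, for this gene and those below, was not tested. A Notch3 UMI was seen in 51.3%, 55.8% and 54.8% of pericyte-like nuclei at median depths of 626 to 636 UMIs. In cardiomyocyte-like nuclei, which are not known to use it, the share was 1.12%, 0.922% and 0.972% at median depths of 1948 to 2266 UMIs. With every nucleus thinned to 500 UMIs the pericyte-like shares were 44.3%, 46.1% and 49.1% and the cardiomyocyte-like shares 0.249%, 0.205% and 0.208%. The same order of classes thus held at equal depth. Endocardial-like nuclei held 88.0, 68.6 and 0 CPM, from 31, 11 and 0 UMIs, where 3 UMIs in MI-DAPA would be 40.9 CPM. The 11 pericyte markers in them summed to 658, 561 and 150.1 CPM, with 1, 3 and 7 of them at 0, and their part in those Notch3 levels was not tested.

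Notch1, the receptor needed for endothelial and endocardial development, stood high in endothelial classes and in pericyte-like nuclei. Endocardial-like nuclei, which line the heart chambers, held 539, 461 and 696 CPM, and vascular endothelial-like nuclei 369, 437 and 463 CPM. The endocardial-like level was the higher in each library, in MI-NS by little. The ranges over the libraries overlapped, with 461 CPM in MI-NS endocardial-like against 463 CPM in MI-DAPA vascular endothelial-like nuclei. Pericyte-like nuclei held 277, 278 and 465 CPM, in MI-DAPA level with vascular endothelial-like nuclei. Lymphatic endothelial-like nuclei held 358, 353 and 250.0 CPM. Cardiomyocyte-like nuclei were lowest, at 8.77, 5.96 and 3.25 CPM.

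Notch4, a receptor known mainly from endothelium, was highest in vascular endothelial-like nuclei at 283, 374 and 370.1 CPM, above every other class. Endocardial-like nuclei held 176, 162 and 136 CPM. Its fibroblast-like levels of 18.0, 47.1 and 38.2 CPM were far lower but differed between libraries, and are taken up with the infarction contrast.

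Notch2 had the opposite pattern. Among the 9 classes with at least 50 nuclei in each library, it was highest in macrophage-like nuclei (185, 130.0 and 112 CPM) and lowest in vascular endothelial-like nuclei (18.3, 10.4 and 10.9 CPM). Between those ends, the cycling, smooth muscle-like, fibroblast-like, cardiomyocyte-like, lymphatic endothelial-like, pericyte-like and endocardial-like ranges each overlapped the next. In MI-DAPA the macrophage-like level rests on 26 UMIs, and fibroblast-like nuclei held 109 CPM from 120 UMIs. The order of these classes in that library is not settled. Cardiomyocyte-like nuclei held 65.6 (57.9-74.1), 61.4 (51.5-72.8) and 78.4 (69.6-87.9) CPM, and Notch2 was the only receptor above 10 CPM in them. Because those nuclei are many and RNA-rich, they held 36.1%, 22.5% and 48.9% of all Notch2 UMIs, against 1.2% to 2.8% of the Notch1, Notch3 and Notch4 UMIs.

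Dll4, the ligand that endothelial cells use in sprouting and arterial vessels, was highest in vascular endothelial-like nuclei at 123, 174 and 162 CPM. Endocardial-like nuclei came next at 39.7, 62.3 and 40.9 CPM, with no overlap. A Dll4 UMI was seen in 7.23%, 10.8% and 9.46% of vascular endothelial-like nuclei, and in 0.132%, 0.237% and 0.548% of macrophage-like nuclei of like depth (medians 607 to 627 and 591 to 657 UMIs). Thinned to 500 UMIs, the shares were 5.71%, 7.99% and 7.38% against 0.132%, 0.118% and 0%.

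Jag2, a second endothelial ligand, stood at 439, 383 and 487 CPM in vascular endothelial-like nuclei, again above all other classes. It was seen in 23.7%, 20.8% and 24.5% of these nuclei, and in 1.30%, 1.38% and 1.11% of fibroblast-like nuclei at median depths of 700 to 764 UMIs. Thinned to 500 UMIs, the shares were 19.6%, 16.0% and 20.2% against 0.848%, 0.986% and 0.740%. Cardiomyocyte-like nuclei held 34.3, 40.4 and 38.2 CPM of Jag2, which was 7.82%, 10.5% and 7.85% of its vascular endothelial-like level in the same library. The corresponding shares for Notch1, Notch4, Dll4 and Hey1 were lower, between 0.659% and 3.43%. They rest on few UMIs in cardiomyocyte-like nuclei, with 35, 13 and 12 of Notch1 and 15, 11 and 9 of Notch4. Dll4 had 6, 13 and 12 UMIs there and Hey1 5, 1 and 3. The part of endothelial RNA in these levels was not tested.

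Jag1, a ligand known for signalling to and between mural cells, was highest in pericyte-like nuclei at 377, 392 and 429.8 CPM. Its pattern was broad. Smooth muscle-like, vascular endothelial-like, lymphatic endothelial-like, fibroblast-like and endocardial-like nuclei lay between 83.4 and 210.3 CPM, each range overlapping the next. Cardiomyocyte-like nuclei were lowest, at 6.01, 7.34 and 5.69 CPM.

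The targets were sparse, with 268 UMIs of Hey1, 254 of Hey2 and 721 of Heyl over all libraries, so their levels are wide. Heyl was highest in pericyte-like nuclei at 197 (153-250), 232 (169-311) and 241 (182-314) CPM. Smooth muscle-like nuclei held 28.3, 84.1 and 81.6 CPM and fibroblast-like nuclei 78.6, 60.1 and 77.3 CPM, and these ranges overlapped. Vascular endothelial-like nuclei held 3.48, 2.97 and 6.22 CPM. Hey2 stood at 22.6, 58.9 and 44.5 CPM in smooth muscle-like, 42.9, 72.2 and 43.9 CPM in pericyte-like and 8.51, 12.5 and 54.6 CPM in endocardial-like nuclei. These ranges overlapped, and the endocardial-like levels rest on 3, 2 and 4 UMIs, so no class can be put first. Among the 9 classes with at least 50 nuclei in each library, Hey1 was highest in vascular endothelial-like nuclei at 52.1 (39.8-67.1), 44.6 (30.1-63.6) and 38.9 (25.2-57.4) CPM. Pericyte-like nuclei held 14.3 to 30.9 CPM, from 5, 6 and 5 UMIs. Endocardial-like nuclei held 0 to 36.9 CPM, from 13, 2 and 0 UMIs. Fibroblast-like nuclei held 40.2%, 40.9% and 42.3% of Heyl UMIs, and cardiomyocyte-like nuclei 36.5%, 17.6% and 53.5% of Hey2 UMIs.

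**Figure D1:**
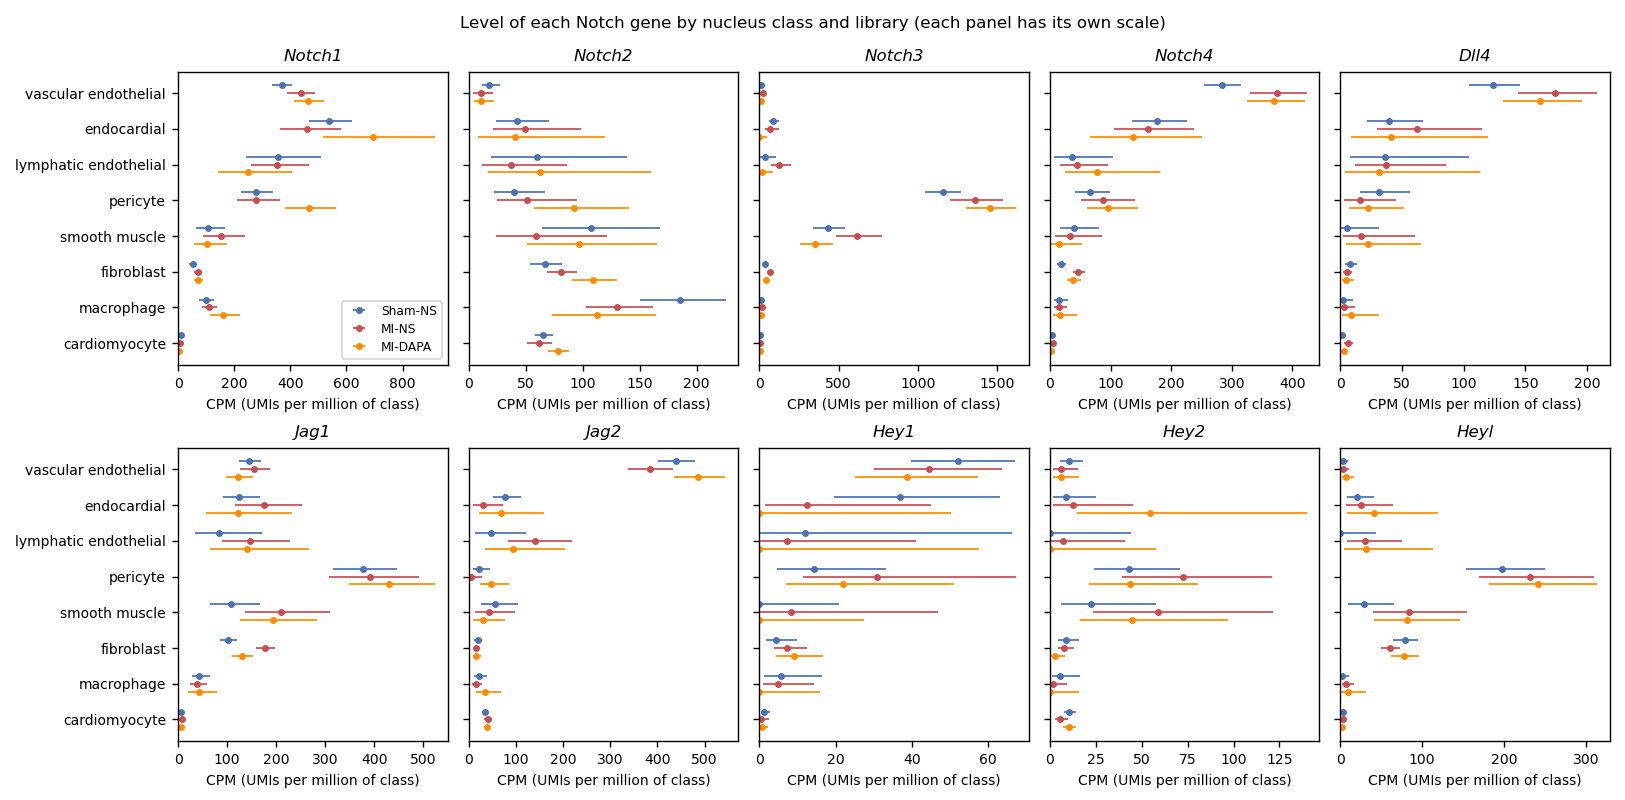
Level of each gene in CPM (UMIs per 1000000 UMIs of the class) for 8 classes of nuclei and 3 libraries, with points for the sums of 1 library and bars for 95% Poisson counting intervals. Notch3 and Heyl peak in pericyte-like nuclei, Notch4, Dll4, Jag2 and Hey1 in vascular endothelial-like nuclei, and Notch2 is lowest there (10.4 to 18.3 CPM).

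**Figure D2:**
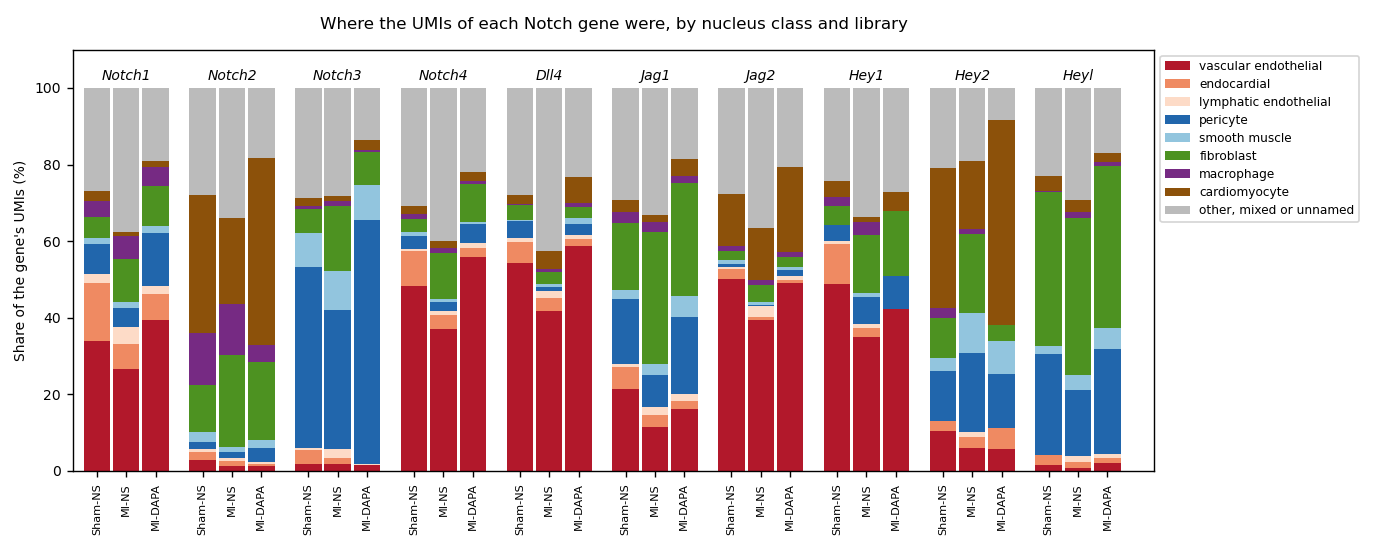
Share (%) of the UMIs of each gene that fell in each class of nuclei, 1 bar per library, with nuclei of mixed, other or unnamed clusters in grey. Vascular endothelial-like nuclei held 41.6% to 58.8% of Dll4 UMIs and cardiomyocyte-like nuclei 22.5% to 48.9% of Notch2 UMIs.

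Across 27 points (9 classes in 3 libraries), the genes whose profile was most like each member were sought among 9657 genes, as Pearson's r of log2(CPM + 10). The points share libraries and differ in depth, so r is a description only. Notch3 was most like Rasl12 (r = 0.95), Daam2 and Arhgef17. Dll4 was most like Arhgef15 (r = 0.93), Cd300lg and the endothelial cadherin Cdh5, and Notch4 most like C430049B03Rik (r = 0.94), Adcy4 and Arhgef15. Notch1 was most like Ggta1 (r = 0.93), Elk4 and Rapgef5, and Notch2 most like Fgd4 (r = 0.80), Fnbp1 and Dennd4b. Jag1 was most like Pear1 (r = 0.93), Plekhg2 and Gnb4, and Jag2 most like Abcb1a (r = 0.90), Zfp366 and Rps6kl1. Hey1 was most like the chemokine gene Cxcl12 (r = 0.86), Spaar and Sema7a, and Hey2 most like Nipal2 (r = 0.79), Mfge8 and Ano1. Heyl was most like Dtx3 (r = 0.92), which encodes a ubiquitin ligase of the Deltex family, followed by Pla2r1 and Ninl. Among the members themselves, Dll4 and Notch4 had r = 0.83 and Notch3 and Heyl r = 0.78, while Notch2 and Dll4 had r = -0.84.

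Within the vascular endothelial-like class, 151, 106 and 89 nuclei formed an arterial-like sub-cluster with at least 11 of 12 arterial markers raised. They were 8.80%, 11.3% and 9.25% of the class. Hey1 was among the 10 leading genes of the matching cluster, although no Notch pathway gene was used to form clusters. Here Hey1 stood at 188, 244 and 211 CPM, against 39.4, 21.8 and 22.5 CPM in the other vascular endothelial-like nuclei. Its arterial-like level was higher in every library, with a log2 ratio of 2.27 (1.39 to 3.07) in Sham-NS. The other libraries held under 50 Hey1 UMIs in these nuclei, so no ratio is given.

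Jag1 divided the class most sharply among the ligands. It stood at 673, 561 and 615 CPM in arterial-like nuclei and at 95.1, 107 and 76.1 CPM in the others, log2 ratios of 2.83 (2.35 to 3.28), 2.39 (1.77 to 2.98) and 3.02 (2.33 to 3.69). Dll4 stood at 277, 331 and 299 CPM against 109, 158 and 150.4 CPM, with log2 ratios of 1.37, 1.09 and 1.02. Jag2 stood at 781, 791 and 1001 CPM against 404, 335 and 437 CPM, with log2 ratios of 0.96, 1.25 and 1.20. All these counting intervals lay above 0. Of the receptors, Notch1 had log2 ratios of 1.02, 0.96 and 0.59, and Notch4 of 0.95, 0.77 and 0.47, the last with an interval that spanned 0 (-0.17 to 1.03).

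The remaining vascular endothelial-like nuclei were held by different sub-clusters in different libraries. A sub-cluster led by Car4 and Tbx3, and named capillary-like by its markers, held 775, 10 and 107 nuclei. One led by Cyp26b1 and Lhx6 held 476, 40 and 122, one led by Ssu2 and Papln 47, 242 and 269, and one led by Prnd and Kit 75, 208 and 260. One led by Col1a1 and Piezo2 was almost confined to MI-NS, with 3, 266 and 28 nuclei, and may be that library rather than a cell type. Dll4 differed among them. In Sham-NS it stood at 161 (128-200.4) CPM in the Car4-led and 18.5 (6.80-40.4) CPM in the Cyp26b1-led sub-cluster. In MI-DAPA the same pair stood at 213 (116-357) and 12.2 (0.310-68.1) CPM. Dll1, another Delta ligand, had the reverse order in Sham-NS, at 59.1 (39.9-84.3) and 136 (98.8-183) CPM. In MI-DAPA it stood at 91.2 (33.5-199) and 147 (75.8-256) CPM, from 6 and 12 UMIs, with intervals that overlapped. Notch4 in the Prnd-led sub-cluster stood at 383 (234-592), 645 (522-788) and 433 (341-543) CPM, with MI-NS the highest. Jag1 in that sub-cluster stood at 76.6, 67.9 and 17.3 CPM, from 4, 10 and 3 UMIs. Such levels were not particular to it. The Ssu2-led sub-cluster held 68.6 CPM of Jag1 in MI-NS and 49.6 CPM in MI-DAPA, from 11 and 9 UMIs. Jag1 was higher in the Col1a1-led sub-cluster of MI-NS (178 CPM) and in the Cyp26b1-led one of MI-DAPA (220.1 CPM).

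**Figure D3:**
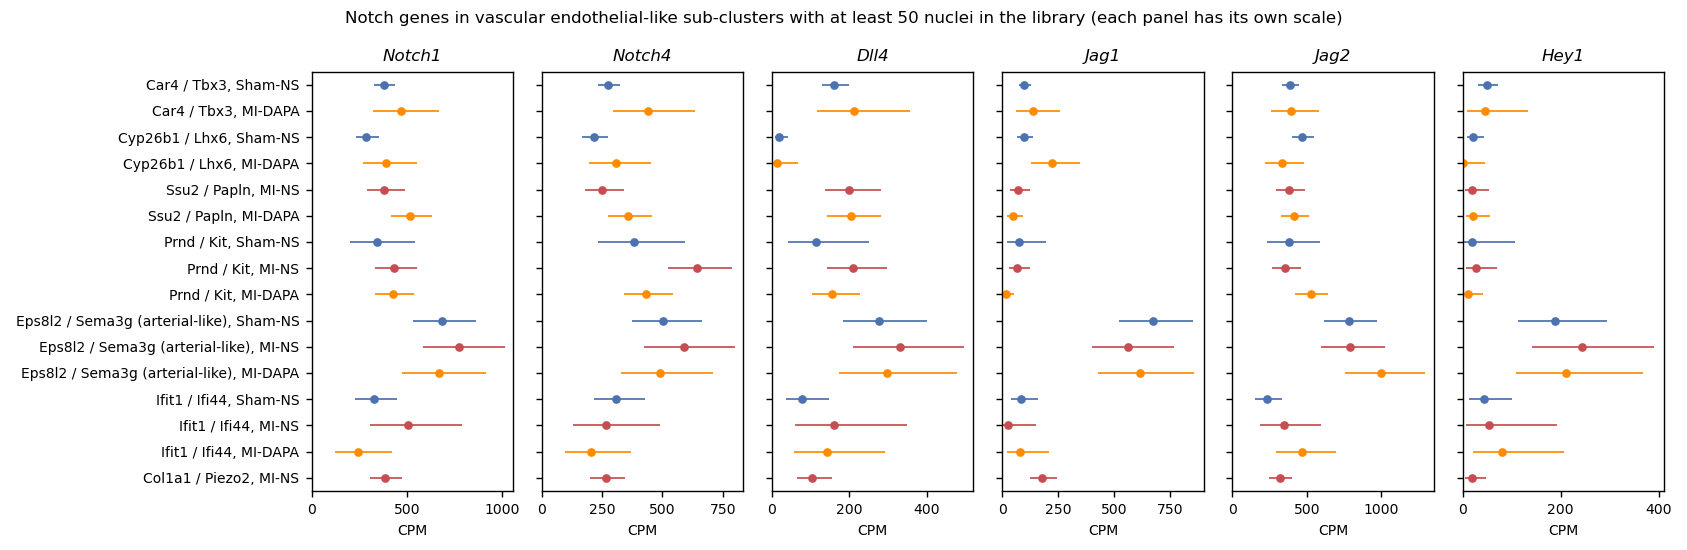
Level in CPM of 6 genes in the sub-clusters of vascular endothelial-like nuclei, named by their 2 leading genes, for each library with at least 50 nuclei, with 95% Poisson counting intervals. Jag1 and Hey1 are highest in arterial-like nuclei in every library (561 to 673 CPM and 188 to 244 CPM), and Dll4 is lowest in the sub-cluster led by Cyp26b1 and Lhx6 (18.5 CPM in Sham-NS and 12.2 CPM in MI-DAPA).

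MI-NS against Sham-NS asks what differed after infarction without the drug. Of 70 pairs of a member and a class (10 genes in 7 classes), 26 had at least 50 UMIs over both libraries and were counted as measurable. A gene was called when it differed at least 2-fold. Of the 26 pairs 1 was called, Notch4 in fibroblast-like nuclei. Over all genes 10.5% of 32827 such pairs were called, 6.93% as higher and 3.55% as lower, so the members' share, 1 of 26, is no result about them. Of the 26 ratios 17 lay above 0, as did 55.8% of all pairs. Counting intervals excluded 0 in 10 members' pairs, 9 above and 1 below. Over all pairs 36.5% did so, 21.2% above and 15.3% below, so the members' 10 of 26 is near the background. Ratios on the CPM scale lay 0.10 to 0.26 (log2) above those with TMM scaling factors in the 7 classes, so small positive ratios depend on the scaling.

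The fibroblast-like class held 4 of these 10 pairs. Notch4 UMIs numbered 24, 83 and 42, giving 18.0 (11.5-26.7), 47.1 (37.5-58.3) and 38.2 (27.5-51.7) CPM. Both infarct libraries lay above Sham-NS, and the log2 ratio of MI-NS to Sham-NS was 1.37 (0.72 to 2.11), between 1.20 and 1.70 over 8 alternative settings, 2 of which left this class as it was. In this class 12.8% of 8403 measurable genes were called, 8.85% higher and 3.96% lower. Jag1 stood at 101 (84.8-120), 177 (158-198) and 130.1 (110-153) CPM, highest in MI-NS, with a log2 ratio of 0.81 (0.52 to 1.11). Notch3 stood at 38.9, 70.3 and 40.9 CPM, with a log2 ratio of 0.84 (0.37 to 1.35). Notch1 stood at 51.7, 70.3 and 71.0 CPM, with a log2 ratio of 0.44 (0.01 to 0.89), which was 0.05 when classes were assigned by marker level. Heyl was lower, from 78.6 to 60.1 CPM, with an interval that spanned 0 (log2 ratio -0.39, -0.79 to 0.02). The 7 measurable members had a median log2 ratio of 0.44, against 0.11 over all genes measurable in the class.

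The endothelial signal in fibroblast-like nuclei was read beside Notch4. The 12 vascular endothelial markers summed to 786, 842 and 731 CPM in fibroblast-like nuclei, with none at 0. Relative to its vascular endothelial-like level in the same library, Notch4 in fibroblast-like nuclei stood at 6.34%, 12.6% and 10.3%, while Jag2 stood at 4.27%, 4.29% and 3.36% and Dll4 at 6.07%, 2.94% and 2.81%, from 10, 9 and 5 UMIs. Notch1 stood at 13.99%, 16.1% and 15.3%. Hey1 stood at 8.62%, 16.5% and 23.4%, from 6, 13 and 10 UMIs. The part of endothelial RNA in the Notch4 ratio was not tested. Notch4 was seen in 1.24%, 3.65% and 2.74% of fibroblast-like nuclei and in 1.05%, 1.07% and 1.10% of macrophage-like nuclei, at median depths of 700 to 764 and 591 to 657 UMIs. Thinned to 500 UMIs, the shares were 1.02%, 2.27% and 1.63% against 0.791%, 0.947% and 0.822%. The Sham-NS share was near the macrophage-like shares, which rest on 8, 9 and 4 UMIs. The 11 pericyte markers, whose class is highest in Notch3 and Jag1, summed to 340.0, 495 and 370.3 CPM in fibroblast-like nuclei, none at 0. They were highest in MI-NS, as Notch3 and Jag1 were, and their part in those ratios was not tested.

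Different clusters made up the fibroblast-like class before and after infarction. A cluster led by Lvrn and Col6a6 held 1505, 39 and 214 nuclei, one led by Comp and Ltbp2, genes of matrix, held 7, 1298 and 457, and one led by Slc34a1 and Vcan held 256, 691 and 680. Notch4 in the Slc34a1-led cluster stood at 14.7 (3.02-42.8), 65.1 (46.0-89.3) and 54.5 (36.8-77.9) CPM, from 3, 38 and 30 UMIs. At resolution 2.0 a cluster led by Vcan and Col5a3 of 119, 677 and 714 nuclei was separate from one led by Duox1 and Gfpt2 of 215, 28 and 50 nuclei, so the make-up of such nuclei differed between libraries. Notch4 stood at 18.7 CPM in the Lvrn-led cluster of Sham-NS, and at 39.0 and 25.1 CPM in the Comp-led cluster of MI-NS and MI-DAPA. Jag1 was highest in the Comp-led cluster, at 206 (180-233) CPM in MI-NS and 168 (130-214) CPM in MI-DAPA. Within the Slc34a1-led cluster its intervals overlapped across libraries, at 92.9 (55.9-145), 128 (101-161) and 109 (83.2-140.4) CPM. Notch3 had the same order in MI-NS, with 85.0 CPM in the Comp-led and 37.7 CPM in the Slc34a1-led cluster.

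**Figure D4:**
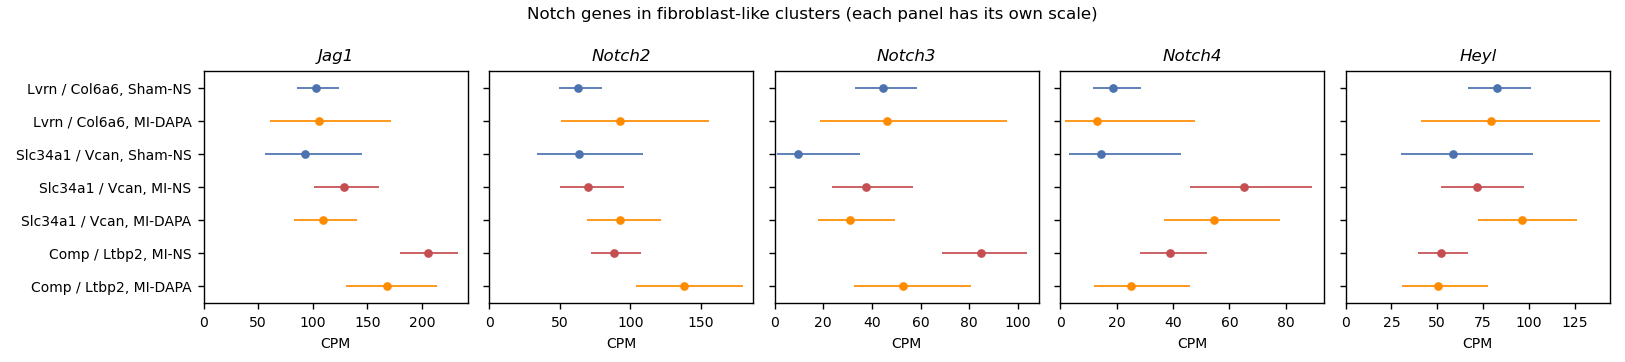
Level in CPM of 5 genes in the clusters of fibroblast-like nuclei, named by their 2 leading genes, for each library with at least 50 nuclei, with 95% Poisson counting intervals. Notch4 is highest in the Slc34a1-led cluster of the infarct libraries (65.1 and 54.5 CPM against 14.7 CPM in Sham-NS), and Jag1 in the Comp-led cluster.

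In vascular endothelial-like nuclei Dll4, Notch4 and Notch1 had counting intervals above 0 in MI-NS, and none was called. The log2 ratio to Sham-NS was 0.49 (0.13 to 0.86) for Dll4, 0.40 (0.16 to 0.64) for Notch4 and 0.24 (0.02 to 0.46) for Notch1. Jag2 had a log2 ratio of -0.19 (-0.42 to 0.02), Hey1 of -0.22 (-0.91 to 0.43) and Jag1 of 0.09 (-0.28 to 0.45). Notch2 and Notch3 had under 50 UMIs in this class, and Notch2 stood at 18.3 and 10.4 CPM from 21 and 7 UMIs. On the TMM scale, which lies 0.21 lower here, the Notch1 ratio was 0.03 and the Jag1 ratio -0.12. On the CPM scale, the Jag2 ratio was -0.27 (-0.52 to -0.02) outside the arterial-like nuclei and 0.02 (-0.51 to 0.53) within them. The Hey1 ratio was -0.82 (-1.88 to 0.07) outside them, from 13 and 41 UMIs. Within them Hey1 had under 50 UMIs. The Cyp26b1-led sub-cluster, the lowest in Dll4, made up 27.7%, 4.26% and 12.7% of the class. Its part in the Dll4 ratio was not tested. The 16 fibroblast markers summed to 879, 2042 and 635 CPM in these nuclei, highest in MI-NS and none at 0, and their part was not tested either.

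No member was called in the remaining classes. Notch3 in pericyte-like nuclei had a log2 ratio of 0.24 (0.01 to 0.47), which was -0.0036 under a stricter nucleus filter. In smooth muscle-like nuclei the ratio was 0.51 (0.03 to 1.00), but it ran from -0.73 to 0.91 over the alternative settings. In that class the 13 cardiomyocyte markers summed to 107604, 27669 and 122609 CPM (none at 0) and the 16 fibroblast markers to 1239, 5292 and 1624 CPM (2, 0 and 1 at 0), so the RNA in these nuclei differed between libraries, and the part of this in the Notch3 ratio was not tested. Notch2 in macrophage-like nuclei was lower in MI-NS, with a log2 ratio of -0.51 (-0.95 to -0.07). At clustering resolution 2.0 a cluster led by Clec9a and Cd72, with 49, 389 and 108 nuclei, was separate from this class, and the ratio was -0.23. The 16 fibroblast markers summed to 889, 1983 and 830.0 CPM in macrophage-like nuclei, with 0, 0 and 2 at 0, and the part of either was not tested. In cardiomyocyte-like nuclei Notch2 and Jag2 had intervals that spanned 0. Hey2 there stood at 10.5 (7.58-14.2), 5.50 (2.84-9.61) and 10.3 (7.29-14.1) CPM, lowest in MI-NS, with a log2 ratio of -0.89 from 42 and 12 UMIs and an interval that spanned 0. The class was made of a Ces1d-led cluster (1508, 273 and 738 nuclei) and a Myh7-led cluster (98, 703 and 702 nuclei). Hey2 stood at 11.4, 5.15 and 8.08 CPM in the first and 2.61, 5.58 and 11.6 CPM in the second, from 41, 2 and 11 and from 1, 10 and 27 UMIs. The part of this make-up in the Hey2 ratio was not tested.

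MI-DAPA against MI-NS asks what differed with dapagliflozin after infarction, and shares the MI-NS library with the contrast above. Of 24 measurable pairs 0 were called at 2-fold, against 5.45% of 28364 pairs over all genes (1.43% higher and 4.02% lower). Of the 24 ratios 13 lay above 0, against 45.3% of all pairs. Counting intervals excluded 0 in 8, 5 above and 3 below, against 28.2% of all pairs, 12.2% above and 15.9% below. These values describe a pair of libraries, not the groups.

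Notch1 had a counting interval above 0 in 2 classes, and was called in neither. In pericyte-like nuclei it went from 278 to 465 CPM, a log2 ratio of 0.73 (0.25 to 1.24), with Sham-NS at 277 CPM. Over the alternative settings that ratio ran from 0.25 with mixed clusters kept in to 1.22, past 2-fold, under the stricter nucleus filter. In endocardial-like nuclei the ratio was 0.60 (0.05 to 1.13), from 51 UMIs in MI-DAPA and 74 in MI-NS. The 16 fibroblast markers in endocardial-like nuclei summed to 3349, 5472 and 2019 CPM (1, 0 and 1 at 0), and the pericyte markers there were lowest in MI-DAPA, as given above. Their part was not tested. In macrophage-like nuclei the ratio was 0.56 with an interval that spanned 0 (-0.07 to 1.16), and lay between 0.23 and 0.91 over the alternative settings. In vascular endothelial-like nuclei the Notch1 ratio was 0.09 (-0.15 to 0.32). Vascular endothelial markers in pericyte-like nuclei summed to 755, 572 and 671 CPM, all 12 detected in each library, and Jag2 there stood at 5.16 CPM in MI-NS and 48.2 CPM in MI-DAPA, from 1 and 11 UMIs. The part of these in the Notch1 ratio was not tested.

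In fibroblast-like nuclei Notch3 was lower in MI-DAPA, with a log2 ratio of -0.77 (-1.31 to -0.28), and so was Jag1, with -0.44 (-0.74 to -0.16). Notch2 was higher, with 0.43 (0.07 to 0.79), and stood between 0.38 and 0.48 over the alternative settings. Notch4 had a ratio of -0.29 (-0.87 to 0.25). The Comp-led cluster, highest in Notch3 and Jag1, held 1298 nuclei in MI-NS and 457 in MI-DAPA, and the pericyte markers were lower in MI-DAPA as given above. The part of either was not tested. Within the Comp-led cluster Jag1 stood at 206 and 168 CPM and Notch3 at 85.0 (69.0-104) and 52.7 (32.7-80.6) CPM.

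Jag2 in vascular endothelial-like nuclei was higher in MI-DAPA, with a log2 ratio of 0.34 (0.10 to 0.59), at 383 and 487 CPM with Sham-NS between them at 439 CPM. Notch2 in cardiomyocyte-like nuclei had a ratio of 0.35 (0.05 to 0.66), which was 0.60 on the TMM scale. Hey2 there had a ratio of 0.86 with an interval that spanned 0 (-0.06 to 1.98). Notch3 in smooth muscle-like nuclei was lower, with -0.81 (-1.38 to -0.27), but the ratio was 0.44 when classes were assigned by marker level.

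**Figure D5:**
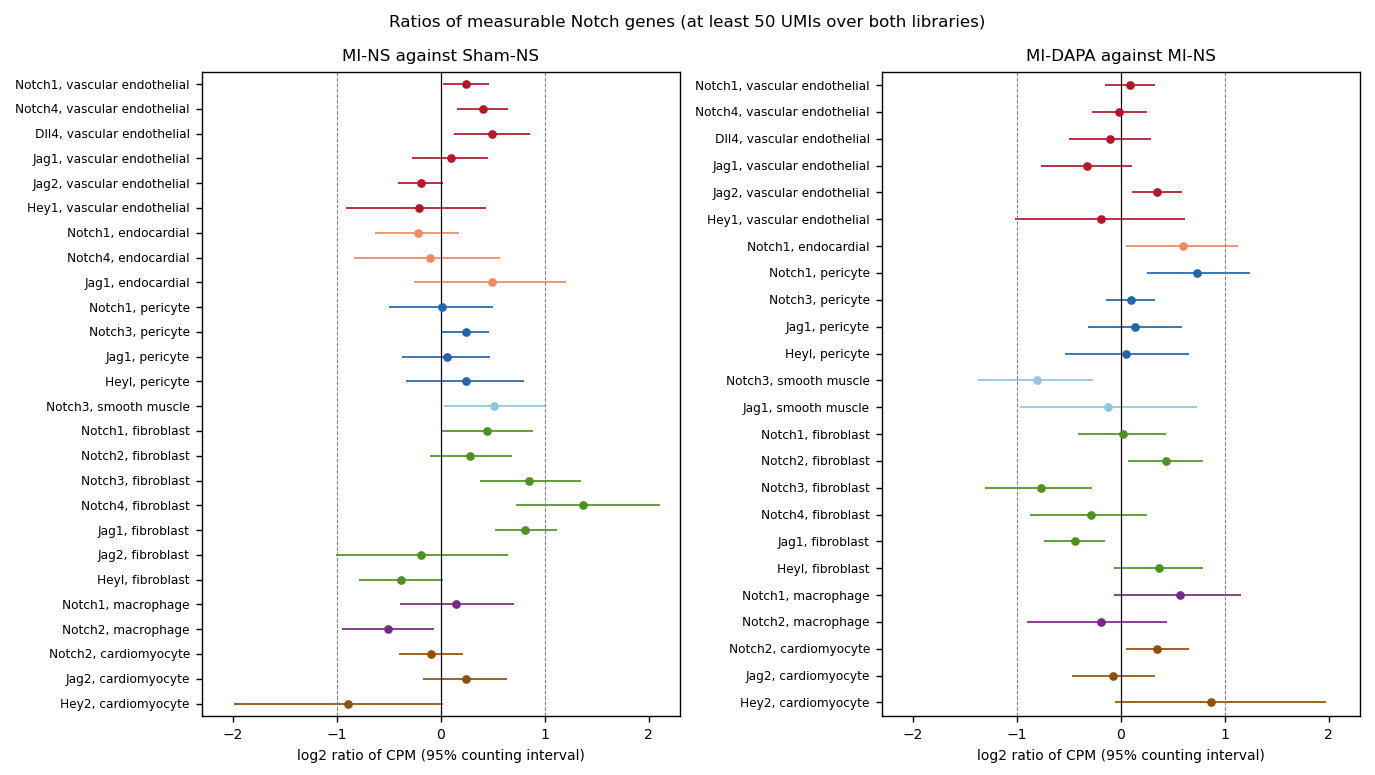
log2 ratio of CPM for each member and class with at least 50 UMIs over both libraries, with MI-NS against Sham-NS on the left and MI-DAPA against MI-NS on the right, 95% counting intervals as bars and dashed lines at 2-fold. Notch4 in fibroblast-like nuclei is the only point past a dashed line (1.37 in MI-NS against Sham-NS).

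The other genes of the pathway were read from a list of 57. In MI-NS against Sham-NS 178 pairs of gene and class were measurable, and 5 were called higher and 2 lower, against the background of 6.93% and 3.55%. In vascular endothelial-like nuclei Mfng, a Fringe enzyme that adds sugars to Notch receptors, stood at 70.4, 149 and 112 CPM, with a log2 ratio of 1.08 (0.64 to 1.52). Neurl3, of the Neuralized family of ubiquitin ligases, stood at 80.0, 181 and 188 CPM (1.18, 0.78 to 1.59). Spen, a co-repressor that acts with RBPJ, was lowest in MI-NS at 367, 157 and 303 CPM, a log2 ratio of -1.22 (-1.54 to -0.91). In fibroblast-like nuclei Dtx3 stood at 236, 478 and 369 CPM (1.02, 0.83 to 1.21), and the co-repressor Tle4 at 35.2, 17.0 and 25.5 CPM (-1.04, -1.76 to -0.36). With TMM factors Mfng (0.86), Neurl3 (0.97) and Dtx3 (0.91) lay under 2-fold.

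In cardiomyocyte-like nuclei Hes1, a target of the pathway that other signals also control, stood at 41.3 (35.3-48.1), 97.7 (85.0-112) and 86.8 (77.5-96.8) CPM. Both infarct libraries lay above Sham-NS, with a log2 ratio of 1.24 (0.94 to 1.54) for MI-NS, 1.01 on the TMM scale. It was higher in both cardiomyocyte-like clusters, at 42.9, 79.9 and 66.9 CPM in that led by Ces1d and Cpeb3 and 26.1, 102 and 98.4 CPM in that led by Myh7 and Ankrd1. Fibroblast markers in cardiomyocyte-like nuclei summed to 195, 509 and 171 CPM, with 1, 0 and 0 of 16 at 0, and their part in the Hes1 ratio was not tested. Lnx1, a ubiquitin ligase that binds Numb, had a log2 ratio of 1.23 (0.60 to 1.87) at 9.77 and 22.9 CPM, and 0.99 on the TMM scale, under 2-fold. In the other classes measured Hes1 was not called, and in fibroblast-like nuclei it was lower in MI-NS (-0.61, -0.94 to -0.29).

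In MI-DAPA against MI-NS 155 pairs of the list were measurable, with 0 called higher and 5 lower, against 1.43% and 4.02%. Nrarp, a target that feeds back to limit Notch signalling, stood at 40.0 (29.3-53.3), 55.0 (38.7-75.7) and 20.2 (10.8-34.6) CPM in vascular endothelial-like nuclei. MI-DAPA was the lowest, with a log2 ratio of -1.41 (-2.48 to -0.50) from 13 and 37 UMIs. In cardiomyocyte-like nuclei Psenen (-1.27) and Aph1a (-1.04), subunits of gamma-secretase, and Hes6 (-1.03) were lower. In that class the median of all genes was -0.16, and the TMM ratios were -1.01, -0.78 and -0.77, of which only the first is past 2-fold. Dtx3 was lower in endocardial-like nuclei (-1.03, -2.17 to -0.12). Dll1 in vascular endothelial-like nuclei stood at 81.7, 119 and 82.4 CPM, highest in MI-NS, with log2 ratios of 0.54 (0.09 to 0.99) and -0.52 (-1.06 to -0.01), neither called. Rbpj itself was highest in macrophage-like nuclei among the compared classes, at 421, 478 and 510.1 CPM, and was called in 0 of the classes in either contrast.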

How the data were processed

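UMI counts per gene and nucleus were deposited by the authors for 3 libraries of 10x Genomics 3' single-cell kits, per the labels' protocols, and the file headers name Cell Ranger 6.0.1 as their source. The submitters' processing notes name mm10 and Seurat, without a role for Seurat. The annotation release, the counting of introns and the use of strand are not given in the sources used here. The deposited barcodes all had at least 500 UMIs.

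Nuclei with at least 300 genes and at most 10% mitochondrial UMIs were kept. Scrublet in scanpy 1.11.5 called 0, 1 and 2 doublets and so did not work, so whole clusters were set aside as mixed where the median doublet score exceeded 0.1, a limit chosen after the scores were seen. Variable genes (2000 per library, with 17 Notch pathway genes removed), 30 principal components and 15 neighbours were used for Leiden clustering at resolution 1.0 (leidenalg 0.10.2), without batch correction. A class name needed at least 3 markers 2-fold above the other nuclei. Endothelial nuclei were re-clustered (20 components, resolution 0.8). A sub-cluster with a median doublet score of 0.1127 was left out of the sub-cluster levels but kept in the classes. Classes rebuilt in this way may differ from those of the study.

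UMIs were summed per class and library (50 nuclei at least in each). Ratios are log2 ratios of CPM after adding 0.5 UMI to both sums. Levels have exact Poisson intervals, ratios conditional binomial ones and shares Clopper-Pearson ones; the code was tested on simulated data. A gene was measurable with 50 UMIs over both libraries and called at 2-fold. There is no test and no p-value, because each group had 1 library. Alternatives were TMM factors (edgeR 4.0.16 in R 4.3.3), other UMI minimums, 0.1 UMI added, a stricter nucleus filter, mixed clusters kept, resolution 2.0, classes by marker level, and thinning to 500 UMIs.

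The text names all 10 members, the pathway genes that were called (at most 4 per class and contrast), Rbpj, Hes1, Nrarp and Dll1 in any case, and the 3 genes most like each member. The members and lists were chosen with earlier results of these data known.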

Additional observations from a re-analysis of the deposited data

How the results depend on the processing

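Each group was 1 library, so no library could be left out, and no paired analysis was possible because the groups share only a single replicate number. Of the 50 measurable ratios of members, 31 kept their sign under all 8 alternatives. Those that did not include Notch3 in smooth muscle-like nuclei in both contrasts. TMM factors put 7 ratios on the other side of 0, all of them between -0.13 and 0.09 at first, and classes assigned by marker level 11. The cause was not tested.

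The 1 member called in MI-NS against Sham-NS became 2 with TMM factors, 3 with at least 500 genes and at most 5% mitochondrial UMIs, 2 with a minimum of 20 UMIs, 13 with no minimum, and 2 with classes by marker level. The 0 called in MI-DAPA against MI-NS became 1 with TMM factors, 2 with the stricter nucleus filter, 1 with a minimum of 20 UMIs, 13 with no minimum, and 1 with mixed clusters kept in. For the other pathway genes in MI-NS against Sham-NS, 7 called became 18 with a minimum of 20 UMIs and 69 with none. In MI-DAPA against MI-NS, 5 became 2 with the stricter filter, 19 with a minimum of 20 UMIs, 81 with none, and 1 with nuclei thinned to 500 UMIs, a setting that leaves fewer UMIs. Shares over all genes are given only for the main settings, 10.5% and 5.45% of pairs in the 2 contrasts. The counts under the alternatives are therefore no result about the members or the pathway. Notch4 in fibroblast-like nuclei was called under each of the 6 alternatives that changed its value. Leaving out the endothelial sub-cluster with a high doublet score, an alternative chosen after seeing the data, moved no member across 0. It moved the endocardial-like Notch1 ratio of MI-NS to Sham-NS from -0.22 to -0.43.

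Depth limits the Hey genes. Hey1, Hey2 and Heyl gave 8 of the 50 measurable ratios, and none of the 8 had an interval that excluded 0. With 1 library per group, a gene that differed between hearts of 1 group cannot be told apart from one that differed between groups.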

Other observations

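Several classes with few nuclei in a library were left out of the contrasts, and some held Notch genes. Mesothelial-like nuclei, which cover the heart surface, numbered 14, 501 and 15, nearly all in MI-NS. In MI-NS they held 128.9 (105-156) CPM of Jag1 from 105 UMIs, 77.3 CPM of Notch1 and 0 UMIs of Hey2, where 3 UMIs would be 3.68 CPM. Adipocyte-like nuclei numbered 2, 89 and 1, and in MI-NS held 166 (113-236) CPM of Notch1 from 31 UMIs and 128.9 CPM of Jag1. B cell-like nuclei numbered 39, 68 and 16 and held Notch2 at 274 (131-504) and 194 (97.0-348) CPM in Sham-NS and MI-NS, from 10 and 11 UMIs, with 0 UMIs in MI-DAPA. T cell-like nuclei in MI-NS held 159 (90.9-258) CPM of Notch1 from 16 UMIs.

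Cycling nuclei, a class drawn from several cell types and led by Mki67 and Top2a, held Notch4 at 249.8 (143-406), 79.3 (46.2-127) and 176 (104-278) CPM and Jag2 at 172, 103 and 186 CPM. Both were lowest in MI-NS, Jag2 from 11, 22 and 19 UMIs. The class held 51, 146 and 100 nuclei. At resolution 2.0 a cycling cluster led by Mki67 and Knl1 (18, 50 and 73 nuclei) was separate from one led by Igkc and Mki67 (23, 81 and 25 nuclei). The make-up of such nuclei thus differed between libraries, and its part in these levels was not tested.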
